A study of Mus musculus with 4 samples.

Results

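Neuromodulator receptors read the slow chemical signals of the brain, such as serotonin, dopamine, acetylcholine, noradrenaline, opioid peptides and endocannabinoids. Nearly all are G protein-coupled: receptors coupled to Gs raise cyclic AMP, those coupled to Gi/o lower it, and those coupled to Gq/11 act through phospholipase C and calcium. In the cortex they tune the excitability of pyramidal cells and interneurons and the release of transmitter from incoming fibres. DNA methylation of cortical neurons lies in CG sites and, unlike in most tissues, also outside them, where it builds up after birth in the contexts CHG and CHH (H is A, C or T).

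The 34 receptor genes described here are 12 serotonin, 5 dopamine, 5 muscarinic acetylcholine, 8 adrenergic and 3 opioid receptor genes and the cannabinoid receptor gene Cnr1. A differentially methylated region of the authors' deposited table was assigned to a receptor gene when it shared at least 1 bp with the RefSeq gene body widened by 10 kb on both sides. This gave 143 of the 101350 deposited regions, and 27 of the 34 genes had at least 1. Each of the 143 regions belonged to 1 receptor gene only.

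Somatosensory cortex was taken at an age of 2.5 months and its DNA read by whole-genome bisulfite sequencing, where cytosines that are still read as cytosine after treatment count as methylated. The conditional knockout (cKO, n = 2 libraries) has the genotype Nsd1Nex-cKO, in which Nsd1, a methyltransferase for lysine 36 of histone H3, is removed under the Nex (Neurod6) driver, active in excitatory neurons. The control (n = 2 libraries) has the genotype Nsd1fl/+, and the labels do not say whether it carries the driver. Both groups are bulk tissue, in which interneurons, glia and vessel cells are not targets of the driver, so a changed share of a cell type and a changed level inside cells cannot be told apart.

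The comparison of cKO with control asks where methylation differs once NSD1 is missing. The authors' deposited table gives a mean level per group for each called region, with no values per library and no coverage. The labels do not say that the libraries are separate animals. The spread between libraries and the depth are unknown, and no test of a difference could be made. Percentages below are the authors' group means over the cytosines of a region, and points are differences between such percentages. The strongest region of a set is the one with the largest absolute area statistic, the score by which the table weighs a whole region.

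The deposited number of cytosines in a region was compared with the RefSeq promoter sequences. In 204 of 216 CG regions that lie wholly inside a promoter window, it was within 1 of double the number of CpGs in the sequence, so it counts cytosines on both strands. A region of 12 CG cytosines thus holds about 6 CpGs.

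The one region of these receptor genes that reached into a listed promoter lay in front of Adra2c, the alpha-2C receptor, a Gi/o-coupled receptor that restrains noradrenaline release. The 250 bases upstream of its start are printed beside those of its paralogs Adra2a and Adra2b, whose promoters held no deposited region. The sequences come from the RefSeq promoter table of GRCm38.p6, which is mm10, plus strand, 5′ to 3′, with CpGs in capitals.
Adra2c (chr5:35278316-35278565): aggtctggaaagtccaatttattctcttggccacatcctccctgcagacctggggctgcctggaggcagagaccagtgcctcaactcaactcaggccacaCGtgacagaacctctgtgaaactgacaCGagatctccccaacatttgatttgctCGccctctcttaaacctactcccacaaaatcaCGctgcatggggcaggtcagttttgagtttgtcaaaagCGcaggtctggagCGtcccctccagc
Adra2a (chr19:54045009-54045258): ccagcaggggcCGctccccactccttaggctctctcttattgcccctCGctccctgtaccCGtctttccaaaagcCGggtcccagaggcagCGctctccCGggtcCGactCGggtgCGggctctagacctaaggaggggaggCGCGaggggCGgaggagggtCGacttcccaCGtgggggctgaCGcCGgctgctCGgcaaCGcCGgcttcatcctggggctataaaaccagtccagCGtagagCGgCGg
Adra2b (chr2:127362929-127363178): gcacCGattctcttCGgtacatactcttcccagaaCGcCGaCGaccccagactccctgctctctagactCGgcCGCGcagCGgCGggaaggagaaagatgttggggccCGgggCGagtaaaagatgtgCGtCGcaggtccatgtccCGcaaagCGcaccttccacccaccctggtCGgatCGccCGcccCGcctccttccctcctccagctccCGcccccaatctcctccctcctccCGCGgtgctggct

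In these 250 bases Adra2c has 6 CpGs, against 22 in Adra2a and 23 in Adra2b. All 6 lie in the deposited CG region, which spans bases 101 to 239 of the printed sequence and ends 12 bp before the start site. Its level was 28.2% in cKO and 57.6% in control. Listed starts were found for 26 of the 34 receptor genes, with 34 promoter windows and a median of 11 CpGs upstream of the start, where 21263 windows of protein-coding genes had a median of 10. The windows of receptor genes ranged from 0 CpGs at 1 start of Oprm1 to 41 in Htr7.

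Lower methylation in cKO prevailed at the receptor genes. Of the 143 regions, 124 were lower in cKO and 19 higher in the authors' deposited table. The regions were 58 CG lower and 6 CG higher, 65 CHH lower and 13 CHH higher, and 1 CHG lower. In gene bodies alone, the losses numbered 31 in CG and 41 in CHH. The table also lists 4 CHH regions on mitochondrial DNA, all lower in cKO, with a median of 0.488% in cKO and 6.38% in control and a median size of difference of 5.87 points. Most CHH differences at receptor genes were smaller: above that size were 5 of the 65 losses and 1 of the 13 gains. At 30 points or more in CG were 35 of the 58 losses and 0 of the 6 gains. The mitochondrial difference has the same direction as the CHH losses at receptor genes, whose median was -4.27 points. No measure of how completely the bisulfite treatment worked in either group was used here. How far a difference shared by all DNA, mitochondrial included, enters these results was not tested. In CG, 90.6% were lower, between the 88.6% of the 21700 CG regions in windows of protein-coding genes and the 94.4% of all deposited CG regions. In CHH, 83.3% were lower, against 67.3% in windows of protein-coding genes and 84.0% of all deposited CHH regions.

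Counted by gene, 27 of 34 receptor genes had a region, where 55.5% of 21779 protein-coding genes did. A CG region lower in cKO was found at 22 receptor genes (64.7%; protein-coding genes 33.4%) and a CHH region lower in cKO at 17 (50%; protein-coding genes 28.8%). A CG region higher in cKO was found at 5 receptor genes (14.7%; protein-coding genes 9.11%) and a CHH region higher in cKO at 3 (8.82%; protein-coding genes 18%). The share of genes with CHH gains was thus below the background, though it rests on only 3 genes, and the shares with CG or CHH losses were above it. For CHG, 1 receptor gene had a region lower in cKO (0.872% of protein-coding genes) and 0 had one higher (0.574%). Window size bears on such shares: the median gene body was 19.1 kb for the receptor genes and 17.2 kb for protein-coding genes. The upper quartiles were further apart, at 70.9 kb and 44.5 kb. Bodies of 100 kb or more were found at 7 of the 34 receptor genes and 2427 of the 21779 protein-coding genes. Over the summed windows the receptor genes held 5.04 regions per 100 kb, against 3.57 for protein-coding genes. These shares describe the list and were not tested.

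**Figure D1:**
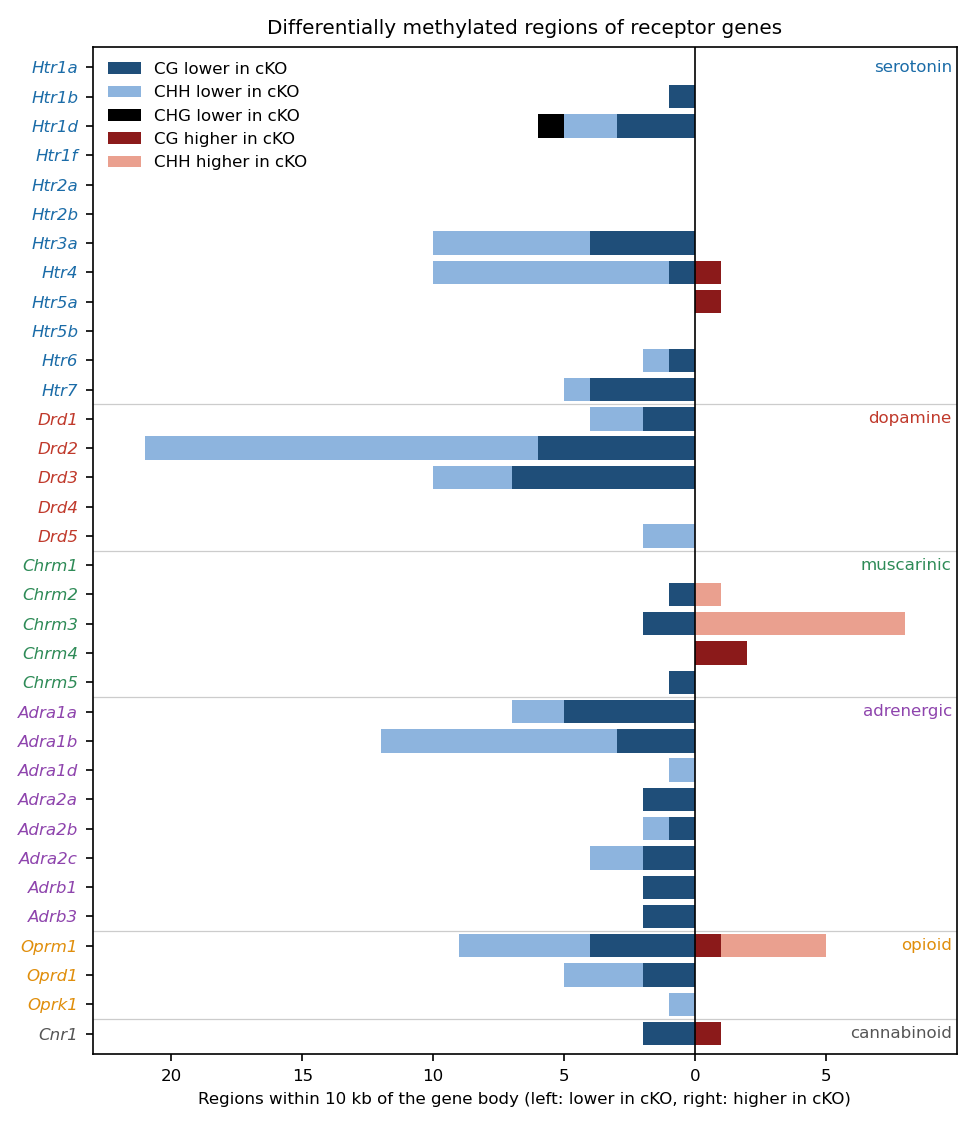
Number of deposited regions within 10 kb of each of the 34 receptor gene bodies, lower in cKO to the left and higher in cKO to the right, stacked by context and ordered by receptor family. Drd2 has the longest bar to the left with 21 regions, Chrm3 the longest to the right with 8, and 7 genes have none.

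Regions of 20 receptor genes were all lower in cKO, those of Htr5a and Chrm4 were all higher, and Htr4, Chrm2, Chrm3, Oprm1 and Cnr1 had both. The 7 genes with no region were Htr1a, Htr1f, Htr2a, Htr2b, Htr5b, Drd4 and Chrm1. They include the main Gi/o-coupled and Gq/11-coupled serotonin receptors of cortical pyramidal cells (Htr1a and Htr2a) and the main muscarinic receptor of the forebrain (Chrm1). No region means that none was called there, since the table gives no level outside called regions. Their gene bodies ran from 4.44 kb to 181 kb with a median of 19.6 kb, and those of the 27 other genes had a median of 17.7 kb.

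The median differences at the receptor genes lay close to those of the whole table, while the CG levels did not. CG regions lower in cKO had a median difference of -30.9 points with quartiles at -36.1 and -27.3. All deposited regions of this kind had a median difference of -31.2 points. The median levels were 33.3% in cKO and 69.8% in control, below the 42.4% in cKO and 76.0% in control of all deposited ones. CG regions higher in cKO had medians of 84.0% in cKO and 56.9% in control, above the 78.0% in cKO and 51.1% in control of all deposited ones. CHH regions lower in cKO had a median of 0.890% in cKO and 5.18% in control, and CHH regions higher in cKO 6.54% in cKO and 2.00% in control. The 6 CG regions higher in cKO spanned 77.4% to 90.2% in cKO and 52.5% to 72.8% in control. None of these 6 started from a low control level, whereas the lower quartile of control levels in all CG regions higher in cKO was 37.3%.

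**Figure D2:**
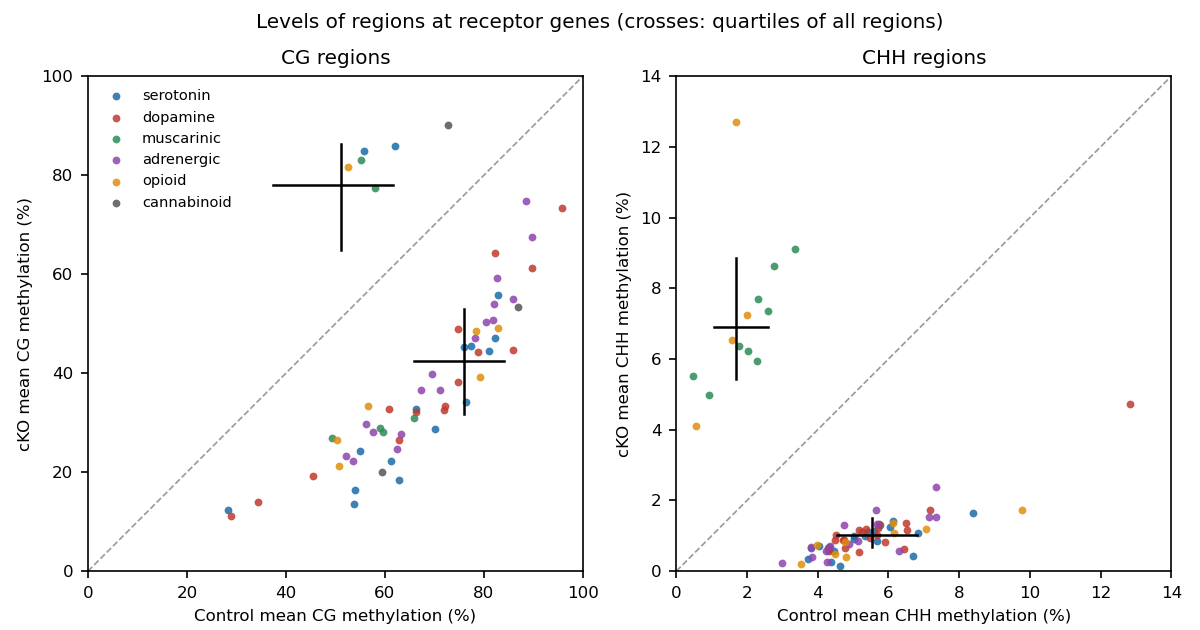
Mean methylation of each region at a receptor gene in cKO (vertical axis, %) against control (horizontal axis, %), in CG on the left and CHH on the right, coloured by family. Crosses span the quartiles of all deposited regions of each direction around their medians, and the dashed line marks equal levels. The points lie around the crosses, with muscarinic CHH regions all above the line.

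The families differed in direction. Dopamine (37 regions) and adrenergic receptor genes (32 regions) had lower regions only, and serotonin receptor genes had 34 lower and 2 higher. Opioid receptor genes had 15 lower and 5 higher, and muscarinic receptor genes 4 lower and 11 higher. In CHH alone the serotonin, dopamine and adrenergic genes had 19, 22 and 15 regions, each of them lower in cKO, whereas the 9 muscarinic CHH regions were all higher and the 13 opioid ones were 9 lower and 4 higher. These splits were not tested, because neighbouring regions are not independent and few genes carry them. Without Chrm3, muscarinic genes kept 1 CHH region higher and 0 lower, and without Oprm1 the opioid genes kept 4 lower and 0 higher. With flanks of 50 kb, the muscarinic CHH regions were 4 lower and 10 higher, the adrenergic ones 44 lower and 2 higher, and the serotonin ones 30 lower and 1 higher. Under the limits of 30 points in CG and above 5.87 points in CHH, the muscarinic genes turned direction, with 3 CG regions, all lower, and no CHH region.

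Dopamine receptor genes held the most regions for their size, at 14.7 per 100 kb of window, then adrenergic (6.97), opioid (5.11), serotonin (4.11) and muscarinic genes (1.85). Without Drd2 the dopamine value was 9.76, and without Htr3a the serotonin value was 3.08. By coupling, the 17 Gi/o receptor genes had 64 regions lower and 10 higher, the 7 Gs genes 27 and 1, and the 8 Gq/11 genes 23 and 8. All 8 regions higher in cKO at Gq/11 genes lay in Chrm3. The 10 at Gi/o genes belonged to Htr5a, Chrm2, Chrm4, Oprm1 and Cnr1, which are of different families.

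Among dopamine receptor genes, Drd2 carried 21 regions, all lower in cKO. The Gi/o-coupled D2 receptor is both an autoreceptor of dopamine neurons and a receptor of their targets. Its 15 CHH regions held 1096 cytosines, with means 0.529% to 1.33% in cKO and 4.29% to 6.54% in control, so no cKO mean reached any control mean. At least as many CHH regions lower in cKO were found at 134 of 21779 protein-coding genes.

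The CHH regions of Drd2 were crowded at its 5′ end. Of the 15, 9 lay within 13.8 kb (chromosome 9, 49338212 to 49352014), from 2.06 kb outside the gene body to its first part. The one with the largest area statistic in the authors' deposited table (49342370 to 49342836, 152 cytosines) had 0.631% in cKO and 6.43% in control, and its neighbour (49341596 to 49341980, 136 cytosines) had 0.883% in cKO and 4.74% in control. Between the start and these regions lay 2 CG regions of low control level, with 11.2% in cKO and 28.8% in control (49341220 to 49341311) and 13.9% in cKO and 34.4% in control (49341397 to 49341480). The 3 CG regions further along the gene body had higher levels in both groups than these, up to 32.8% in cKO and 66.3% in control, the strongest of these 3 (49386250 to 49386387, 17 cytosines) had 19.2% in cKO and 45.4% in control, and the one behind the gene had 73.3% in cKO and 95.8% in control.

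Drd3, the Gi/o-coupled D3 receptor, had 7 CG and 3 CHH regions, all lower in cKO. Of the CG regions, 3 lay within 1.33 kb inside the gene (chromosome 16, 43799471 to 43800795), where cKO means spanned 26.5% to 49% and control means 62.8% to 85.9%. A CHH region shared bases with one of these (43800276 to 43800437), at 0.890% in cKO and 4.49% in control. A second CHH region (43813249 to 43813430) had the highest CHH level of any receptor gene in control, 12.8%, and kept 4.73% in cKO.

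The Gs-coupled dopamine receptor genes Drd1 and Drd5, with bodies of 4.48 and 3.015 kb, had 4 and 2 regions, most of them upstream. Per 100 kb of window this was 16.3 regions at Drd1 and 8.69 at Drd5, beside 23.9 at Drd2 and 10.9 at Drd3. Drd1 had a CG region 2.71 kb before its start at 38.2% in cKO and 74.7% in control, and a second inside the gene at 64.2% in cKO and 82.3% in control. Its 2 CHH regions lay 4.19 and 9.20 kb upstream, the nearer at 1.73% in cKO and 7.18% in control and the farther, stronger one at 1.03% in cKO and 4.52% in control. Drd5 had 2 CHH regions within 3.39 kb upstream, at 0.837% in cKO and 5.92% in control and at 0.560% in cKO and 4.32% in control.

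Among adrenergic receptor genes, all 8 had at least 1 region and all regions were lower in cKO. The Gq/11-coupled alpha-1B receptor gene Adra1b held the most, with 9 CHH and 3 CG regions. Its CHH means spanned 0.220% to 2.38% in cKO and 2.98% to 7.35% in control. The strongest (chromosome 11, 43839891 to 43840064, 67 cytosines) had 1.52% in cKO and 7.16% in control. The CG means of Adra1b were 22.2%, 27.8% and 36.6% in cKO and 53.5%, 63.3% and 67.3% in control, and all 3 regions lay between 18.6 and 28.5 kb downstream of its nearest listed start. At least 9 CHH regions lower in cKO were found at 370 protein-coding genes.

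Adra1a had 5 CG and 2 CHH regions. Its CG means spanned 23.2% to 50.8% in cKO and 52.2% to 81.9% in control, and the stronger CHH region (chromosome 14, 66763205 to 66763381, 68 cytosines) had 0.270% in cKO and 4.25% in control. Adra1d had 1 CHH region inside the gene, at 1.31% in cKO and 4.75% in control, which also overlapped the gene model Gm39938. These 3 genes encode the receptors through which noradrenaline acts on phospholipase C.

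In the Gi/o-coupled alpha-2 group, regions lay outside the gene bodies, which are only 3.20 to 4.04 kb long. Besides the promoter region, Adra2c had a CG region 2.96 kb upstream of its start (chromosome 5, 35275285 to 35275602, 24 cytosines), at 24.7% in cKO and 62.4% in control. A CHH region between them had 0.707% in cKO and 4.35% in control, and a second, 9.17 kb behind the gene, had 1.54% in cKO and 7.33% in control. The regions of Adra2a and Adra2b lay downstream, at 36.6% in cKO and 71.1% in control for the strongest of Adra2a, and at 74.8% in cKO and 88.4% in control for the CG region of Adra2b, which had the smallest difference of all CG regions here. A CHH region that encloses it had 0.858% in cKO and 5.13% in control.

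The Gs-coupled beta receptor genes Adrb1 and Adrb3 had CG regions only. Adrb1, the main cardiac beta receptor, also active in cortex, had 2 within 2.92 kb upstream, at 54.0% in cKO and 82.0% in control and at 55.0% in cKO and 85.8% in control. Adrb3, best known from fat tissue, had a region inside the gene at 29.7% in cKO and 56.2% in control, and another 15 bp outside its body at 59.1% in cKO and 82.6% in control.

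Among serotonin receptor genes, Htr3a and Htr4 held 10 and 11 of the 36 regions. Htr3a encodes a subunit of the serotonin-gated cation channel, which in cortex marks a class of interneurons. All 10 of its regions lay in the flanks and were lower in cKO, and 0 lay in the gene body. Of these, 9 lay on one side, between 0.381 and 7.59 kb from the body. The 3 CG regions there had 13.6%, 16.5% and 32.7% in cKO and 53.8%, 54.0% and 66.3% in control. The 6 CHH means spanned 0.159% to 1.65% in cKO and 3.8% to 8.40% in control. The strongest CG region of Htr3a lay on the other side (chromosome 9, 48916173 to 48916713, 34 cytosines), at 45.3% in cKO and 76.1% in control. Some of these regions overlapped the gene model Gm32335. In regions per 100 kb of window (31.3), Htr3a ranked highest of the receptor genes, and 0.349% of protein-coding genes were at least as dense.

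Htr4, a Gs-coupled receptor, had 9 CHH regions lower in cKO, 7 of them inside the gene, with means 0.264% to 1.43% in cKO and 3.71% to 6.83% in control. The strongest had 0.264% in cKO and 4.36% in control. Its CG region in the gene had 44.5% in cKO and 81.1% in control. The CG region of its flank that was higher in cKO, at 84.9% in cKO and 55.8% in control, lay inside the neighbouring gene Fbxo38.

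Htr7, also Gs-coupled, had 4 CG regions and 1 CHH region, all lower in cKO. The one with the most cytosines (16, chromosome 19, 35955894 to 35956029) had 45.6% in cKO and 77.4% in control, and the one nearest its start, 0.187 kb outside the gene body, had 24.2% in cKO and 55.0% in control. The CHH region had 0.417% in cKO and 6.69% in control. Htr6, likewise Gs-coupled, had a CG region 0.336 kb downstream of a listed start (chromosome 4, 139074232 to 139074453, 33 cytosines), at 12.3% in cKO and 28.3% in control, the lowest control level of any CG region at a receptor gene. Its CHH region, at 1.10% in cKO and 5.41% in control, lay inside the neighbour Tmco4.

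Of the Gi/o-coupled serotonin receptor genes, Htr1d had 6 regions, all lower in cKO. Its CG region 4.31 kb upstream (chromosome 4, 136418903 to 136419214, 24 cytosines) had 18.4% in cKO and 62.8% in control, the largest CG difference at any receptor gene (-44.4 points). Its strongest CHH region, 9.55 kb upstream, had 0.573% in cKO and 4.46% in control. Inside the gene, a CHH region at 1.24% in cKO and 6.05% in control lay near the CHG region (136437401 to 136437470), at 0.560% in cKO and 6.03% in control. Htr1b, the terminal autoreceptor, had 1 CG region in its flank, at 34.2% in cKO and 76.4% in control. Htr5a was the exception, with a CG region inside the gene that was higher in cKO, at 86.0% in cKO and 62.0% in control.

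Among muscarinic receptor genes, Chrm3, the Gq/11-coupled M3 receptor, carried 8 CHH regions higher in cKO and 0 lower. Its gene body of 486 kb is the longest of the receptor genes. The CHH means spanned 4.97% to 9.11% in cKO and 0.485% to 3.35% in control. Over all deposited CHH regions higher in cKO, the lower quartile was 5.42% in cKO and the upper quartile 2.58% in control. All 8 differences, 4.03 to 5.866 points, were below the mitochondrial median size of 5.869 points, the largest only just. The one with the largest area statistic in the authors' deposited table (chromosome 13, 10117723 to 10117833, 55 cytosines) had 5.52% in cKO and 0.485% in control. A group of 3 lay within 4.31 kb (10079817 to 10084129), with a median of 7.69% in cKO and 2.61% in control. At least 8 CHH regions higher in cKO were found at 153 protein-coding genes.

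The 2 CG regions of Chrm3 went the other way. Both lay about 327 kb from the start of the gene, at 28.1% in cKO and 59.6% in control (10033593 to 10033673) and at 30.9% in cKO and 65.9% in control (10033904 to 10034266). Chrm2, the Gi/o-coupled M2 receptor, showed the same pair of directions, with a CHH region at 5.94% in cKO and 2.29% in control and a CG region at 26.9% in cKO and 49.4% in control. Chrm4, the Gi/o-coupled M4 receptor, had 2 CG regions higher in cKO, at 83.0% in cKO and 55.2% in control inside the gene, over 5 cytosines, and at 77.4% in cKO and 57.9% in control over 23 cytosines inside the neighbour Dgkz, a diacylglycerol kinase. Chrm5 had 1 CG region, lower at 28.9% in cKO and 59.0% in control, in a stretch it shares with Aven.

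Among opioid receptor genes, Oprm1, the mu receptor and target of morphine, had 14 regions of both directions. Its CHH regions followed an order along the gene body of 280 kb and its flank. The 3 nearest the 5′ end were lower, with 1.07%, 1.19% and 1.35% in cKO and 6.15%, 7.06% and 6.13% in control. The next 4 were higher, with 12.7%, 6.54%, 7.24% and 4.11% in cKO and 1.67%, 1.59%, 2.00% and 0.547% in control. The last 2, of which one lies 2.26 kb behind the body, were lower again, at 0.214% and 0.482% in cKO and 3.52% and 4.49% in control. The first region of the middle group (chromosome 10, 6860362 to 6860563, 73 cytosines) had the largest CHH difference at any receptor gene (11 points).

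CG methylation at Oprm1 was lower in cKO in 4 regions, 21.3% to 49.2% in cKO and 50.7% to 82.9% in control. One CG region was higher, at 81.5% in cKO and 52.5% in control, further along the gene than the last CHH region that was higher. From 6885779 on, the annotated Oprm1 body overlaps Ipcef1, and 7 of the 14 regions, with 4 of the 5 higher ones, lie inside both genes, and another lies in Ipcef1 behind the Oprm1 body. When regions inside another protein-coding gene were left out, a choice made once the data had been seen, the opioid genes kept 1 CHH region higher and 7 lower.

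Oprd1, the delta receptor, had 2 CG and 3 CHH regions, all lower in cKO. A CG region 0.82 kb upstream of its start had 26.4% in cKO and 50.4% in control, and a CHH region in the gene (chromosome 4, 132130003 to 132130107) had 1.74% in cKO and 9.78% in control. Its strongest CHH region, also in the gene, had 0.818% in cKO and 4.77% in control. Oprk1, the kappa receptor for dynorphin, had 1 CHH region 8.63 kb from its body, at 0.409% in cKO and 4.79% in control. Cnr1, the receptor for endocannabinoids, had 2 CG regions lower in cKO in its flanks, at 19.98% and 53.4% in cKO and 59.4% and 86.8% in control. Another CG region, inside Cnr1 and 2.60 kb after a listed start, was higher, at 90.2% in cKO and 72.8% in control.

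**Figure D3:**
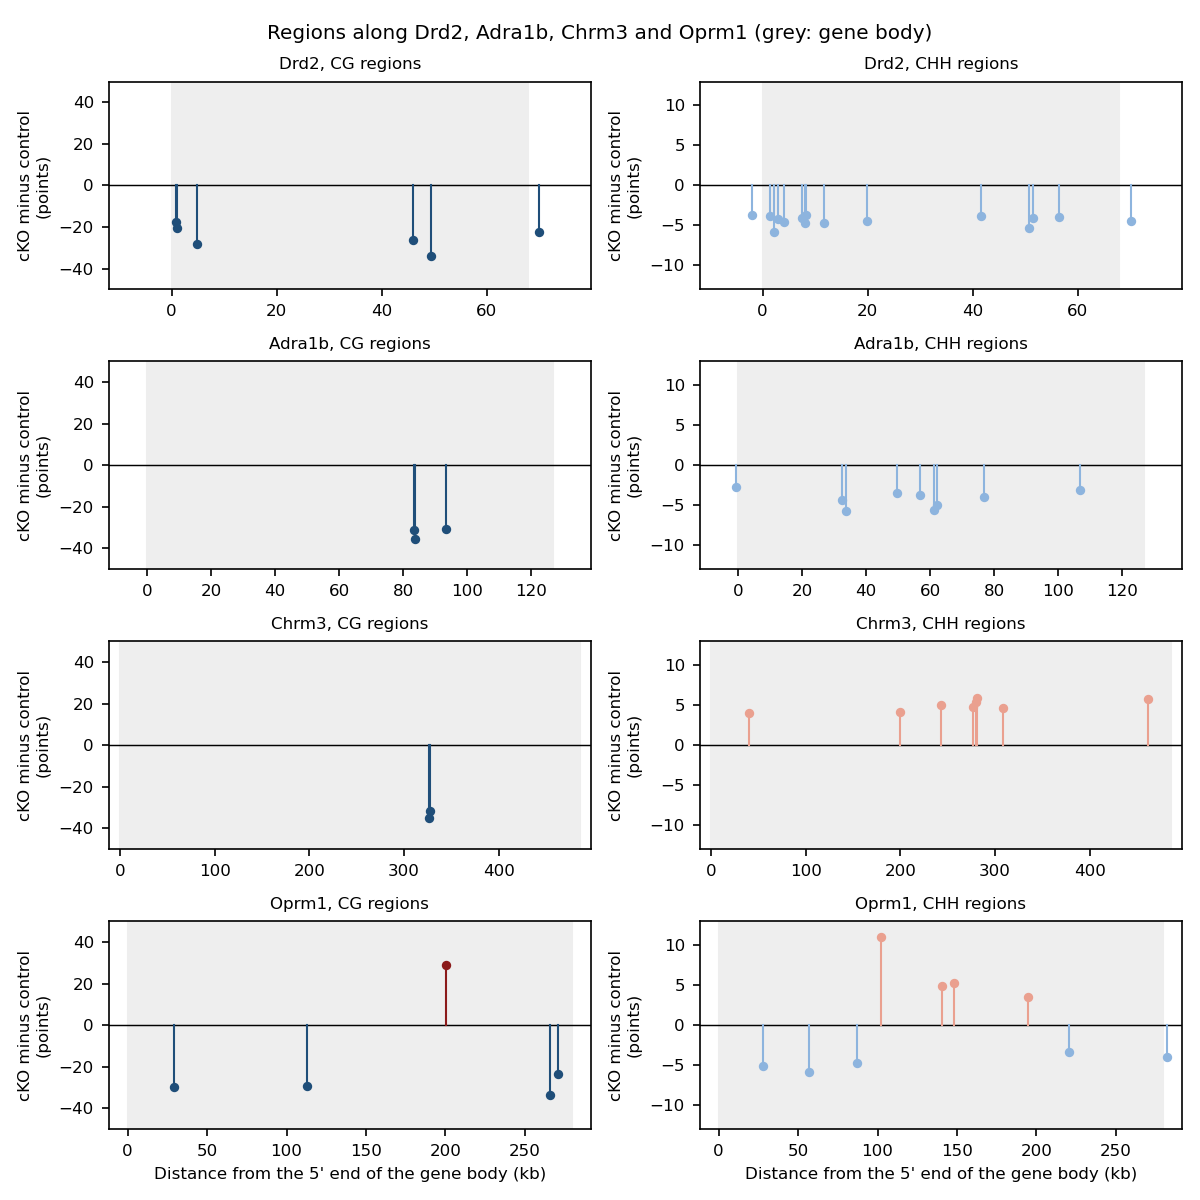
Difference of cKO minus control (points) of each region along Drd2, Adra1b, Chrm3 and Oprm1, by distance from the 5′ end of the gene body (kb), with CG on the left and CHH on the right, and the gene body in grey. CHH differences are all below 0 in Drd2 and Adra1b and all above 0 in Chrm3, and in Oprm1 the 4 above 0 lie between regions below 0.

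In CHH, the 2 directions also differed in place. All 13 CHH regions higher in cKO lay inside gene bodies, at a median of 199 kb and at least 40.1 kb from the nearest listed start. Of these 13, 8 lay in Chrm3 (486 kb) and 4 in Oprm1 (280 kb). Of the 65 CHH regions lower in cKO, 41 lay inside gene bodies and 24 in flanks, and the 46 of genes with a listed start had a median distance of 11.6 kb. In CG the order was the other way: the 5 regions higher in cKO of genes with a listed start had a median distance of 8.35 kb. The 46 such CG regions lower in cKO had a median of 12.7 kb. Of these 46, 8 lay within 2 kb of a start (17.4%), where 13% of those at protein-coding genes did. These 8 belonged to Htr6, Htr7, Drd1, Drd2 (2 regions), Adra2c, Oprm1 and Oprd1. A CHH region lower in cKO lay within 1 kb of 14 of the 58 CG regions lower in cKO (24.1%), against 20.1% at protein-coding genes.

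Gene length went with CHH regions higher in cKO. The 3 receptor genes that had them, Chrm3, Oprm1 and Chrm2, are among the 7 with a body of 100 kb or more, and 0 of the 27 shorter ones had any. Of protein-coding genes, 57.4% of those of 100 kb or more and 13% of the shorter ones had such a region. The other long receptor genes had none: Htr1f (181 kb) had no region at all, and Htr4 (179 kb), Adra1a (136 kb) and Adra1b (127 kb) had 9, 2 and 9 CHH regions, all lower.

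**Figure D4:**
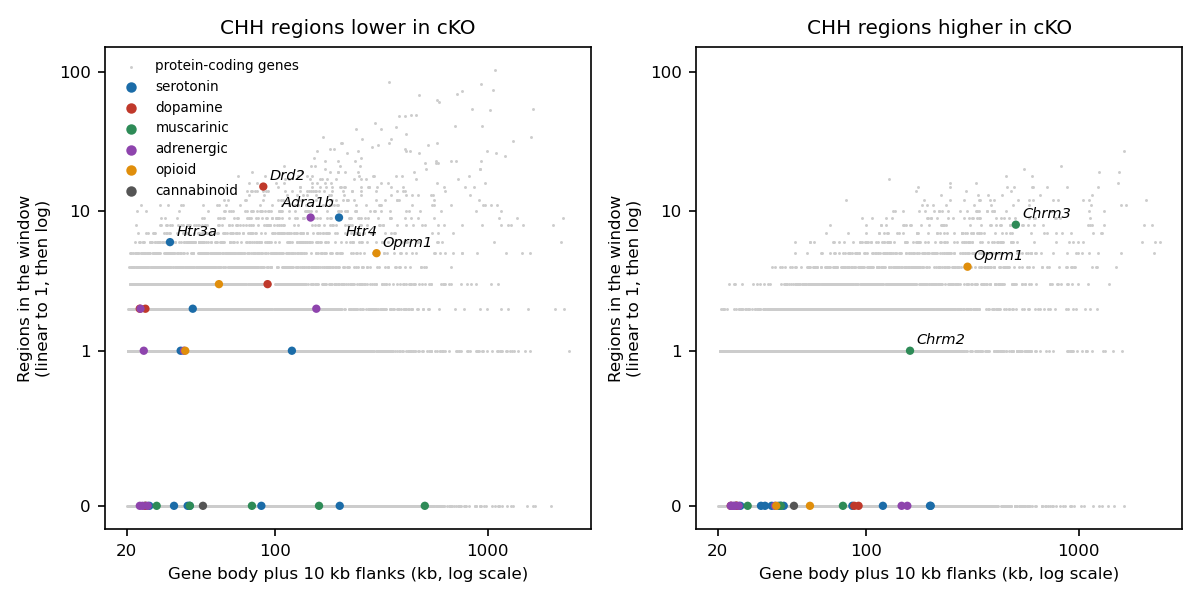
Number of CHH regions lower (left) and higher (right) in cKO against the size of the gene body with its flanks (kb, log scale), for protein-coding genes in grey and receptor genes in the colour of their family. Drd2 has 15 lower regions in a window of 87.8 kb, and only Chrm3, Oprm1 and Chrm2 leave the zero line on the right.

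In CHH, regions at genes that supply the transmitters were mostly losses, and regions at genes that carry the receptor signal into the cell mostly gains. In CG both lists had more losses than gains. The lists also differ in gene length, and the part of length in this contrast was not tested. Of 26 genes for synthesis, transport, breakdown and peptide precursors, 17 had a CHH region lower in cKO (65.4%; protein-coding genes 28.8%) and 1 had one higher (3.85%; protein-coding genes 18%). A CG region was lower at 16 (61.5%; protein-coding genes 33.4%) and higher at 3 (11.5%; protein-coding genes 9.11%). Their CHH regions were 65 lower and 3 higher. Examples are Pnmt, the enzyme that makes adrenaline, at 21.2% in cKO and 49.7% in control (CG, chromosome 11, 98386637 to 98387155), and Mgll, which breaks down an endocannabinoid, at 42.3% in cKO and 80.1% in control. The endocannabinoid-making lipase genes Dagla and Daglb had CG regions higher in cKO. They stood at 79.1% in cKO and 58.6% in control in Dagla and at 75.3% in cKO and 54.0% in control in Daglb. Dagla also had 1 CG region lower in cKO, and Napepld had 1 CG region of each direction. Daglb held the 3 CHH regions higher in cKO. Chat, which makes acetylcholine, and Slc18a3, its vesicular transporter, share 13 of the regions of this list, since the transporter gene lies within the same window.

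Of 55 signalling partners (G protein subunits, adenylyl cyclases, phospholipases C, kinases, arrestins, RGS proteins, phosphodiesterases and GIRK channels), 22 had a CHH region higher in cKO (40%; protein-coding genes 18%) and 15 one lower (27.3%; protein-coding genes 28.8%). Their CHH regions were 103 higher and 25 lower, so 19.5% were lower, against 83.3% at the receptor genes, 95.6% at the supply genes and 67.3% in windows of protein-coding genes. CG regions were 59 lower, in 24 genes (43.6%; protein-coding genes 33.4%), and 34 higher, in 20 (36.4%; protein-coding genes 9.11%). The most CHH gains were listed at Plcb1 (15), a phospholipase C, Pde10a (14), a phosphodiesterase of striatal neurons, and the cyclase gene Adcy2 (12), chosen after their values were seen. The strongest CG regions were Adcy1 at 23.6% in cKO and 9.86% in control and Gnas, the Gs alpha subunit, at 39.2% in cKO and 25.7% in control among those higher. Among those lower they were Gna11 at 20.4% in cKO and 43.5% in control and Pde4d at 40.2% in cKO and 76.7% in control. The median gene body was 71.6 kb for the partners and 34.4 kb for the supply genes. Of the 23 partners of 100 kb or more, 18 had a CHH region higher in cKO, where 57.4% of protein-coding genes of that length did. Of the 32 shorter partners 4 did, where 13% of the shorter protein-coding genes did. Among supply genes, 0 of the 3 of 100 kb or more and 1 of the 23 shorter ones had such a region. The lists were not tested against each other.

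**Figure D5:**
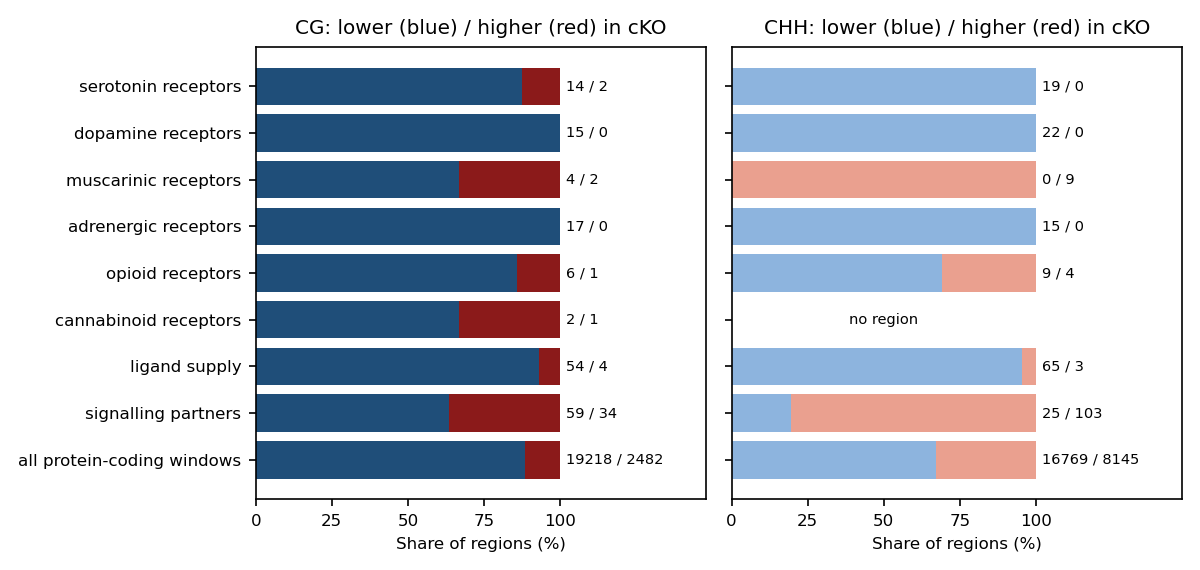
Share of regions lower (blue) and higher (red) in cKO in CG (left) and CHH (right), with the counts lower / higher beside each bar, for the receptor families, the ligand supply and signalling partner lists and all windows of protein-coding genes. In CHH the muscarinic receptors (0 lower, 9 higher) and the signalling partners (25 lower, 103 higher) stand opposite to the other lists.

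The 10 kb limit cut through runs of losses at some genes. Just inside it lay a CHH region of Oprd1 at 9.61 kb (0.751% in cKO, 3.99% in control) and a CG region of Cnr1 at 9.65 kb. Just outside lay CG regions of Oprd1 at 10.4 kb (48.3% in cKO, 84.2% in control), of Adra2c at 10.6 kb (24.9% in cKO, 70.0% in control) and of Cnr1 at 10.7 kb (50.1% in cKO, 78.9% in control). The 8 regions nearest the limit on the inside, from 8.03 kb on, and the 5 nearest on the outside, up to 11.7 kb, were all lower in cKO.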

How the data were processed

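Whole-genome bisulfite sequencing was done on 2 cKO and 2 control libraries of mouse somatosensory cortex. CASAVA, Bowtie2 and mm10 are named by the submitters' processing notes. Which region caller and thresholds were used, and whether replicates were pooled, is not given in the sources used here. The authors deposited mean methylation per region and group as a fraction from 0 to 1, printed here as a percent. The area statistic of the authors, a score without fixed limits, served to rank and filter regions. The deposited difference of the group means matched cKO minus control in 101350 regions within 1e-09. The cytosine number and length of each region are the authors' as well.

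Gene bodies and promoters came from RefSeq on GRCm38.p6. All 34 receptor symbols and all partner genes matched. Entries that start within 3 Mb of the beginning of a chromosome other than Y were dropped, which left 21779 protein-coding genes. Overlaps were computed with Python 3.11.15, numpy 2.4.6 and pandas 2.3.3 and tested on simulated data. Alternatives were other flanks, stricter limits on the area statistic, cytosine number and difference, a larger part of a region required inside the window, and leaving out regions in other genes. No tests were made, since there are no values per library. The members, families and partner lists were chosen with earlier results of these data known. Every member was described, with the 3 regions of largest area statistic per family, context and direction, and per partner list the 2 CG regions per direction. With no genome at hand, sequences came from promoters only, so the rule for printing sequences of the strongest regions could not be followed, and exons were not analysed here.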

Additional observations from a re-analysis of the deposited data

How the results depend on the processing

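Of 152 recomputed values for 28 results, 113 stayed within the limit set for them (1.5 times for counts), 35 moved beyond it and 4 changed direction. Counts follow the window: CG regions lower in cKO numbered 31 in gene bodies alone, 38 with flanks of 2 kb and 132 with 50 kb (58 at 10 kb), CHH regions lower in cKO 41 in bodies and 122 with 50 kb (65), and genes with them 14 (CG) and 10 (CHH) in bodies, and 11 (CHH) with 2 kb. With 50 kb, 7 genes had a CHH region higher in cKO, and 2 CHG regions at 2 genes were lower. In bodies alone, 11 supply genes had a CHH region lower, and 11 partners a CG and 4 a CHH region lower. With the area statistic at or above its context's median, 26 CG regions were lower, 3 at 3 genes higher (median difference 19.5 points), 6 CHH regions higher, and 14 partners had one. With at least 10 cytosines, 25 CG regions were lower and 3 at 3 genes higher. With CG differences of at least 30 points and CHH differences above the mitochondrial median (5.87 points), 35 CG regions were lower and 0 at 0 genes higher, 5 CHH regions at 5 genes lower and 1 at 1 gene higher. The share of regions lower was then 100% for serotonin (15 regions), muscarinic (3) and Cnr1 (2). For muscarinic genes this turned the direction, from 26.7%. For Cnr1 (66.7%) it was 0%, on 1 region, in the body alone, at the higher area statistic and with at least 10 cytosines. Without regions in another protein-coding gene, added after the data were seen, 3 CG regions at 3 genes were higher and the opioid share lower was 91.7% (75% with them). Fewer or more regions enter when a flank or limit is changed, and the cause of these changes was not tested. Under each alternative run, dopamine genes had 0 regions higher. With 50 kb, adrenergic genes had 2 CHH regions higher and serotonin genes had 1, and muscarinic genes had 4 lower. Leaving out libraries could not be done with group means. No paired analysis was possible because the table holds no values per library. Depth is unknown, so no call could be weighed by coverage.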
